A study of Homo sapiens with 4 samples.

Results

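CYR61, a matricellular protein gene and one of the best known transcriptional targets of the YAP/TEAD complex, was examined in Ricolinostat-treated breast cancer cells together with 9 further genes of the Hippo pathway. The set holds 4 target genes (CYR61, CTGF, ANKRD1 and AMOTL2), the coactivators YAP1 and WWTR1, and the kinase LATS2 with the pathway components AJUBA, MOB1A and MOB1B. All probes annotated with 1 of these symbols in the authors' normalized table were taken, which gave 10 genes with 13 probes and 22 spots, out of 34755 genes, 58201 probes and 60901 spots on the array. The set was chosen by the known log2 change of CYR61 in these data, by the known damage under the MOB1A spot, and otherwise by pathway, so the values of CYR61 and MOB1A are a description and were not tested. The symbol TAZ in the table stands for tafazzin and was not taken for WWTR1, whose protein is often called TAZ.

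SUM149 is an established line of inflammatory breast cancer cells. Cells were plated, left to attach for 24 h, and either not treated or given 2.5 uM of ACY1215 (Ricolinostat), an inhibitor of the cytoplasmic deacetylase HDAC6, for 3, 6 or 12 h. RNA of each of the 4 groups was labelled with Cy5 and hybridised on 1 two-colour Agilent array against a Cy3 reference, labelled as a pool of treated and untreated SUM149 cells. There was no replicate of any group and no vehicle array was analysed here, so treatment cannot be told apart from time in culture medium or vehicle, and no p-value is given.

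In the Hippo pathway the kinases MST1 and MST2 activate LATS1 and LATS2, with MOB1 proteins as cofactors, and LATS phosphorylates the coactivators YAP and TAZ, which keeps them out of the nucleus. Unphosphorylated YAP and TAZ bind TEAD transcription factors and raise the transcription of CYR61, CTGF and ANKRD1, and of AMOTL2 and LATS2, which feed back on YAP. CYR61 and CTGF also answer to serum response factor and AP-1, and both genes respond within hours to changes in cell attachment and the actin cytoskeleton.

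The promoters of CTGF and ANKRD1 are shown because both are classical YAP/TEAD targets and hold more than 1 copy of the TEAD motif, yet gave different readings on the arrays. The motif searched was GGAATG on both strands, and each copy is in capitals in the windows of 250 bases before the RefSeq start (GRCh38.p14, 5′ to 3′ along the gene, both on the minus strand). The windows are chr6:131951373-131951622 for CTGF and chr10:90921088-90921337 for ANKRD1.

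CTGF: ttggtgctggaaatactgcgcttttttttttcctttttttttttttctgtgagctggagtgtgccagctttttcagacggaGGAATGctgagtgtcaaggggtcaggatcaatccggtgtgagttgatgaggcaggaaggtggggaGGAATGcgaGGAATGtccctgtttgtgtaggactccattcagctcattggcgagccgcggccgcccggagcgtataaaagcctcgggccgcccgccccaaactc

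ANKRD1: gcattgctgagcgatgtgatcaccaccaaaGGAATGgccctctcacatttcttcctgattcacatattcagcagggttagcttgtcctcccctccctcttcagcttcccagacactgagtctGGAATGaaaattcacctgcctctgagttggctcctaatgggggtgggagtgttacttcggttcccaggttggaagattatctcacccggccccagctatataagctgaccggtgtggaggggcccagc

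In CTGF, 3 copies began 169, 104 and 95 bases before the start, and in ANKRD1 2 copies began 220 and 128 bases before it. Windows with at least 3 copies made up 0.0826% of the 35093 RefSeq windows of this length, and those with at least 2 copies 0.94%. RefSeq windows were at hand for 9 of the 10 genes, 13 windows in all, and AMOTL2, AJUBA and YAP1 had 1 copy each in 1 of their windows, against 11.9% of all windows with at least 1. No copy was found in the windows of LATS2, WWTR1, MOB1A or MOB1B. The pattern TGANTCA, searched for AP-1 with any base at N, was in the windows of ANKRD1 and MOB1B (6.57% of all windows). In ANKRD1 the base at N was T, and a stricter pattern with C or G there was not searched. The CArG box of serum response factor was in none of the 13 (1.16% of all windows). CYR61 had no window in the table. A match of letters is a description and not a bound site.

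The median Cy5 signal of all spots was 36 to 40 units over a local background of 24, no spot was saturated, and 63.3% to 67.1% of genes were well above background in Cy5. In the untreated array 3.38% of spots lay in damaged areas and in the 3 h array 4.71%, against 0% at 6 h and 0.00821% at 12 h. The Cy3 signals did not match the label of the reference for every gene, with 199 genes whose lowest Cy3 signal exceeded their highest Cy5 signal by 8-fold or more. The opposite excess was not counted. Among the further YAP/TEAD targets listed below, AREG had normalised log2 ratios of Cy5 to Cy3 of 5.22 to 5.84 and F3 of 4.48 to 4.88. The sample was in Cy5 on all arrays, so a difference of the reference RNA and one of the dyes cannot be told apart. Of 10 markers of basal-like breast epithelium, 8 were well above background on all arrays, KRT14 and KRT6A being the exceptions. Of 5 genes in the list of luminal receptors, 4 were above background on all arrays (ESR1, ERBB2, FOXA1 and GATA3) and PGR on none. Their summed Cy5 signal was 955 to 1221 units over background. Of 5 fibroblast markers 3 were above background on all arrays and COL3A1 on none. All 4 leukocyte and all 3 endothelial markers were above background on all arrays. The fibroblast, leukocyte and endothelial lists had low summed Cy5 signals of 584 to 712, 1049 to 1428 and 160 to 248 units over background, against 114979 to 158128 for the basal list. The part of these signals in the results below was not tested.

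CYR61 rose on every treated array. Its Cy5 signal was 8471 units in untreated cells, 21883 at 3 h, 41241 at 6 h and 34622 at 12 h, so that all 3 treated arrays lay above the untreated one. The normalised log2 ratio of Cy5 to Cy3 went from −1.07 in untreated cells to 0.48 at 3 h, 1.90 at 6 h and 1.83 at 12 h. This is a log2 change of 1.55 at 3 h, 2.97 at 6 h and 2.90 at 12 h, or 2.93-fold, 7.86-fold and 7.49-fold.

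The only error that can be had here is technical. Over 297 probes printed in several copies, the log2 change of 1 copy varied with an SD of 0.16 at 3 h, 0.12 at 6 h and 0.12 at 12 h, which covers spots of 1 array and not separate cultures. Between 6 h and 12 h CYR61 differed by −0.07 on the log2 scale, less than the corresponding SD of 0.078. At 6 h 3 of 20344 measured genes rose more than CYR61, at 12 h 3 of 20485, and at 3 h 55 of 20774. MOB1A, whose untreated spot lay in a damaged area, was among them at each time. As CYR61 was chosen for its rise, its rank follows from that choice and is no evidence. In these bulk samples a larger share of CYR61-expressing cells and more RNA per cell cannot be told apart.

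By its label the reference RNA is the same on all arrays, yet the normalised Cy3 value of CYR61 was 0.29 lower at 3 h, 0.44 lower at 6 h and 0.50 lower at 12 h on the log2 scale than on the untreated array. In the Cy5 channel alone, quantile normalized, the log2 change of CYR61 was smaller, at 1.29, 2.53 and 2.42. The CYR61 spot was intact. Within 20 rows and 10 columns of it lay 30 copies of repeated probes, of which 0 were more than 2-fold low in either channel of any array.

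CTGF, the CCN family relative of CYR61 and likewise a secreted matricellular protein, was the other target past 2-fold on an intact spot. It was dim before treatment, with a Cy5 signal of 126 units, and read 305 units at 3 h, 725 at 6 h and 440 at 12 h, while its Cy3 signal stayed between 484 and 564. All treated arrays were above the untreated one, with a peak at 6 h. The log2 ratio moved from −1.89 to −1.09, 0.29 and −0.32, a log2 change of 0.79, 2.18 and 1.57 at 3, 6 and 12 h, or 1.73-fold, 4.55-fold and 2.96-fold.

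From 6 h to 12 h CTGF declined by a log2 difference of −0.62, against the SD of 0.078 between spots, whereas CYR61 held its level. CTGF was the only one of the 9 measured members past 1.5-fold between these undamaged arrays, where 0.468% of all genes rose and 1.15% fell that far. No member passed 2-fold between them, as 0.0676% of all genes did upward and 0.0579% downward. Whether the time courses of CYR61 and CTGF differ beyond the spread between cultures could not be tested. None of 39 copies of repeated probes near the CTGF spot was more than 2-fold low on any array.

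ANKRD1, a cardiac and stress-responsive ankyrin repeat protein gene often used as a YAP readout, gave no measurable signal in the cells. Its Cy5 signal was 24, 26, 24 and 22 units on the untreated, 3 h, 6 h and 12 h arrays over a local background of 24 to 25, and was not well above background on any of them. The Cy3 signal of 46 to 51 units was well above background on all 4 arrays. No fold is given for this gene, and despite the pair of TEAD motifs in its promoter window the arrays do not say whether it moved.

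AMOTL2, an angiomotin family scaffold that binds YAP, was bright and nearly flat. Its Cy5 signal was 2174 units untreated, 2332 at 3 h, 1846 at 6 h and 2127 at 12 h. The log2 change was −0.07, 0.02 and 0.28 at 3, 6 and 12 h, within the technical SD at the first 2 times and beyond it at 12 h, where median centring in place of loess turned it to −0.06.

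**Figure D1:**
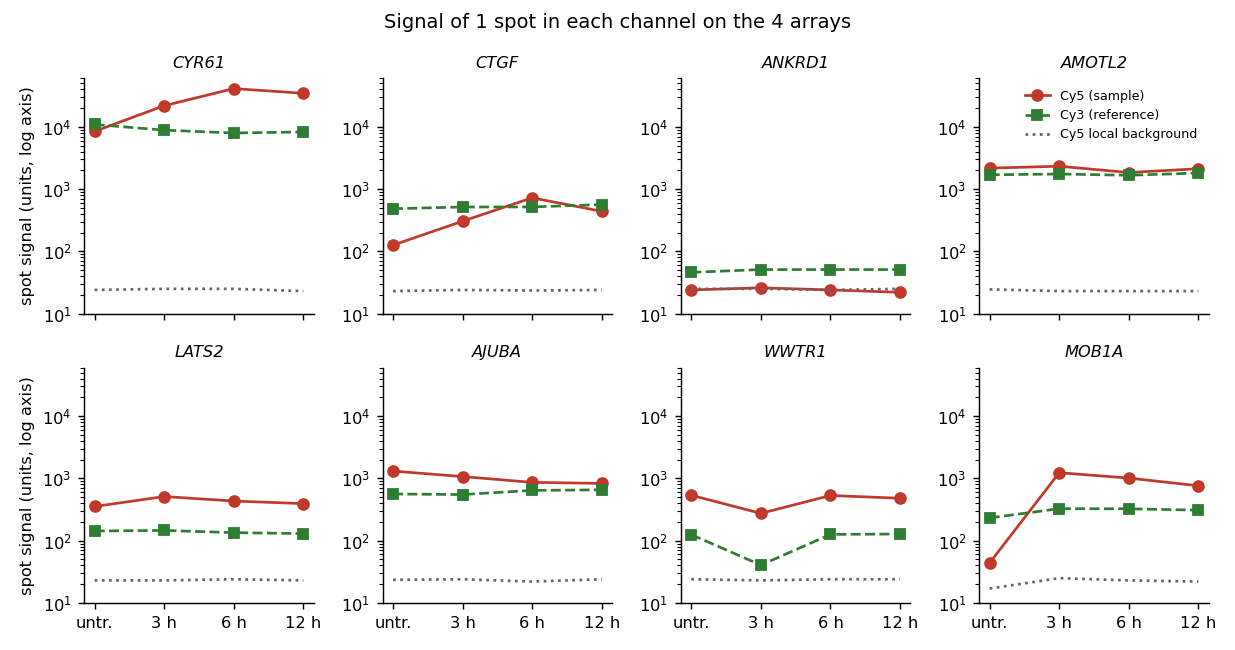
Signal of 1 spot in Cy5 (red, the sample) and Cy3 (green, the reference) for 8 genes, in scanner units on a log axis, on the untreated, 3 h, 6 h and 12 h arrays. The dotted line is the local Cy5 background. CYR61 and CTGF climb in Cy5 only, ANKRD1 lies on the background, WWTR1 dips in both channels at 3 h, and MOB1A is low in Cy5 on the untreated array.

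LATS2, the kinase that phosphorylates YAP and is itself a target, gained slightly. Its Cy5 signal was 354 units untreated and 512, 433 and 394 after 3, 6 and 12 h, and the log2 change was 0.34, 0.51 and 0.53. These changes exceeded the technical SD at each time. The normalised Cy3 value of LATS2 differed from the untreated array by 0.07, −0.13 and −0.19. In Cy5 alone its log2 change was about level, at 0.37, 0.40 and 0.38.

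AJUBA, a LIM domain protein that restrains LATS kinases, was lower on all treated arrays. Its Cy5 signal declined from 1312 units to 1071 at 3 h, 864 at 6 h and 832 at 12 h. The log2 change was −0.37, −0.55 and −0.47, beyond the technical SD at each time.

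YAP1 itself was measured with the best technical depth, since its probe was printed in 10 spots. On the untreated array 2 of them carried an outlier flag and were set aside. Over the 8 others the median Cy5 signal was 1003 units untreated, with a range of 854 to 1172, and 883, 507 and 513 units at 3, 6 and 12 h. Before normalization, the range at 3 h (845 to 1102) overlapped the untreated range. Those at 6 h (462 to 623) and 12 h (485 to 570) did not. At each time these spots are copies of the same probe on the same array. Their ranges cover the spread between spots and not that between arrays or cultures. How often other repeated probes lacked overlap was not counted, so the gap is a description.

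The log2 change of YAP1 over these 8 spots was −0.28 ± 0.084 at 3 h, −0.55 ± 0.12 at 6 h and −0.48 ± 0.12 at 12 h (SD between spots of 1 array pair, n = 8), and all 8 spots were below 0 at each time. With the 2 flagged spots on the treated arrays also averaged in, the values were −0.26, −0.54 and −0.47. The transcript of the coactivator was lower, while those of CYR61 and CTGF were higher.

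**Figure D2:**
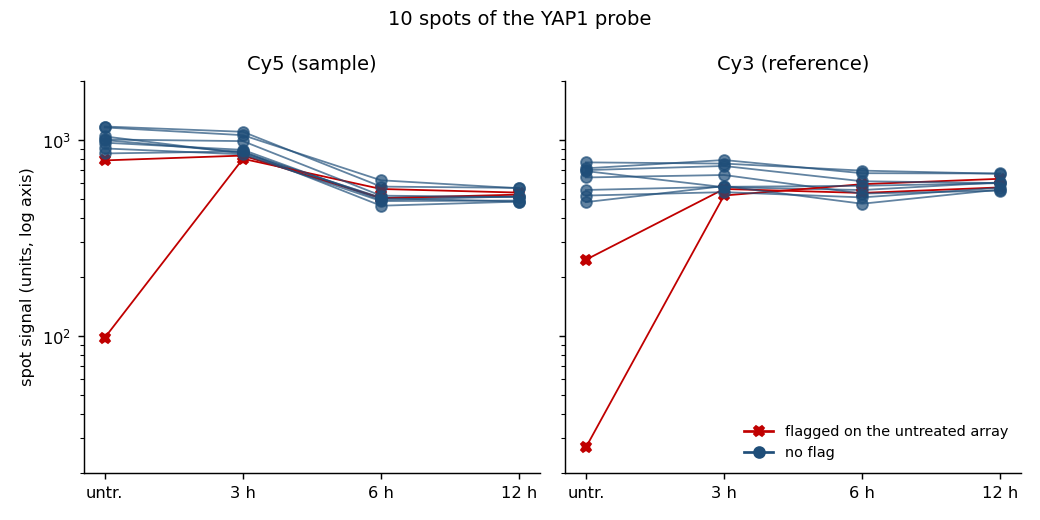
Signals of the 10 spots of the YAP1 probe in Cy5 (left) and Cy3 (right), in scanner units on a log axis, by array. Red crosses are the 2 spots flagged on the untreated array, 1 of which reads 98 units in Cy5 and 27 in Cy3 there, far below the other spots of the same probe. The blue spots lie lower in Cy5 at 6 h and 12 h than in untreated cells.

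WWTR1, the gene of the coactivator TAZ, stayed near its untreated value at 6 h and 12 h and had no settled value at 3 h. Its brighter probe had log2 changes of 0.13, 0.13 and 0.09 at 3, 6 and 12 h. The 3 h value rests on a damaged spot, which read 275 units in Cy5 against 480 to 536 on the other arrays and 40.5 units in Cy3 against 125 to 128. Near it, the 41 copies of repeated probes on the 3 h array were low by a median log2 deviation of −1.58 in Cy5 and −2.56 in Cy3, measured against copies of the same probe elsewhere. In Cy5 alone the log2 change of WWTR1 was −0.97 at 3 h, and 0.15 and 0.12 at 6 h and 12 h. At 3 h it was 0.85 with a normexp offset of 1, 0.66 in the authors' table and 0.89 by the Feature Extraction ratio. The second WWTR1 probe was above background on 2 of the 4 arrays only, and no fold is given for it.

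MOB1B, a cofactor of LATS kinases, had 3 probes that disagreed. The probe brightest in Cy3 gave log2 changes of −0.16, −0.20 and −0.15, the second 0.72, 0.77 and 0.41, and the third −0.03, −0.00 and 0.03 at 3, 6 and 12 h. For the first of these the normalised Cy3 value was itself 0.32 to 0.59 higher on the treated arrays, and Cy5 alone gave 0.43, 0.13 and 0.37. The direction for MOB1B therefore depends on the probe and on the channel used.

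MOB1A, the paralog of MOB1B with the same role, had 1 probe with 1 spot and showed the largest rise of all measured genes at 3 h and 12 h, with log2 changes of 3.13, 3.18 and 3.03. The size depended on the processing of the dim untreated spot, and reached 4.53, 4.67 and 4.60 by the Feature Extraction ratio. Its Cy5 signal was 44 units on the untreated array against 1235, 1013 and 762 at 3, 6 and 12 h. The Cy3 signal was 232 units on the untreated array against 309 to 327 on the treated ones. After normalization this was a Cy5 difference of 3.66, 3.66 and 3.37 and a Cy3 difference of 0.54, 0.48 and 0.34 on the log2 scale.

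The untreated MOB1A spot lay in a damaged area, where 15.7% of the spots in its window were defective, although the spot had no outlier flag of its own. Within the same distance as above lay 41 copies of repeated probes, of which 8 were more than 2-fold low in Cy5 and 5 in Cy3 on the untreated array. Of 6 copies there that were more than 8-fold low in Cy5, 4 were within 2-fold of their expected Cy3 signal or above it, so a loss in Cy5 without one in Cy3 was also seen in spots near MOB1A whose signal elsewhere on the array was known. The lowest such Cy5 deviation was −6.40, at a nearby copy outside the windows counted as damaged. Losses in Cy3 beyond those in Cy5 occurred near MOB1A too. Among the 41 copies the log2 deviation of Cy5 less that of Cy3 ran from −5.63 to 7.18. What lowered the untreated Cy5 signal of MOB1A was not tested. Deviations of copies are of signals over background without offset or normalization. The MOB1A differences above include the offset that shrinks changes of dim spots, so the sizes cannot be set against each other. On the 3 h, 6 h and 12 h arrays 0 of the 41 copies were more than 2-fold low in either channel.

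A flagged YAP1 spot 15 rows and 4 columns from MOB1A read 98 units in Cy5 on the untreated array and 802, 563 and 539 on the treated ones, while the unflagged YAP1 spots declined. Its Cy3 signal on the untreated array was low as well, at 27 units against 482 to 769 on the unflagged spots, whereas the MOB1A spot kept 232 units of Cy3. The other flagged YAP1 spot, 47 rows from MOB1A in the same column, read 787 units in Cy5 and 245 in Cy3 on the untreated array. With damaged areas left out MOB1A has no value against untreated cells. Between the undamaged 6 h and 12 h arrays its log2 change was −0.15.

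**Figure D3:**
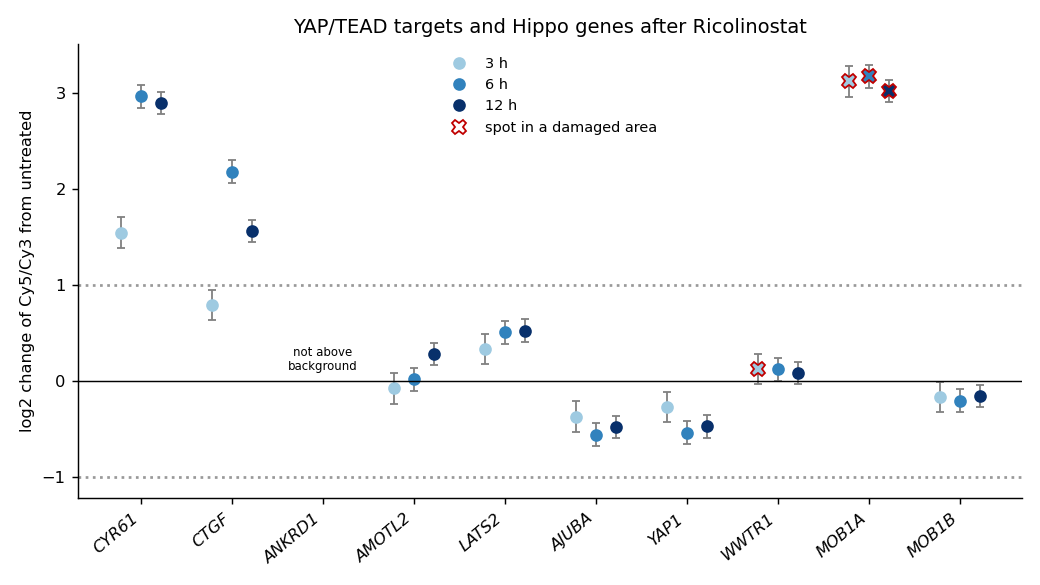
Log2 change of the normalised Cy5/Cy3 ratio from the untreated array at 3, 6 and 12 h for the 10 genes, each by its probe brightest in Cy3. Bars are the SD between spots of repeated probes (technical), dotted lines mark 2-fold, and red-edged crosses mark values that rest on a spot in a damaged area. CYR61 and CTGF stand above 2-fold at 6 h and 12 h, as does MOB1A at all 3 times with an untreated spot in a damaged area, and no gene lies below −1.

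Counted over the set, 2 of the 9 measured members had risen at least 2-fold at 3 h (CYR61 and MOB1A), where 1.71% of all measured genes had. At 6 h it was 3 members with CTGF added, against 2.81% of all genes, and at 12 h again 3, against 2.34%. Without MOB1A the counts were 1, 2 and 2. At 1.5-fold 3 members had risen at each time, again CYR61, CTGF and MOB1A, beside 6.9%, 9.4% and 8.09% of all genes, and 0 had fallen, beside 1.96%, 4.42% and 5.13%. AJUBA, YAP1 and LATS2 lay close to that limit and passed it under other settings. At 6 h AJUBA had −0.65 in the authors' table and YAP1 −0.76 in Cy5 alone. With median centring AJUBA had −0.78 and YAP1 −0.79 at 12 h. LATS2 passed upward at 12 h, with 0.66 at a normexp offset of 1 and 0.64 in the authors' table. No member fell 2-fold, against 0.375%, 0.944% and 1.12% of all genes. The set holds genes chosen for their rise or their damaged spot, so its counts are no evidence about the pathway.

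Whether the rise of CYR61 was shared was therefore asked in 23 other YAP/TEAD targets, a list also compiled with earlier results of these data known. Of the 22 that were measured, 0 rose 2-fold at 3 h, 0 at 6 h and 1 at 12 h, beside 1.71%, 2.81% and 2.34% of all measured genes. Of the same 22, 1, 3 and 1 fell 2-fold, beside 0.375%, 0.944% and 1.12%. In a list of this size these counts of rises are near the shares over all genes and are no result about the list. At 1.5-fold 3 targets had risen at each time, beside 6.9%, 9.4% and 8.09%, and 2, 4 and 3 had fallen, beside 1.96%, 4.42% and 5.13%. Their median log2 change was 0.11, 0.01 and 0.11, beside 0.01, 0.02 and 0.01 over all measured genes. EDN1, the gene of the vasoconstrictor peptide endothelin, had log2 changes of 0.69, 0.58 and 1.08 at 3, 6 and 12 h.

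FJX1, a Golgi kinase-like gene related to fly four-jointed, was the target that fell furthest, by −1.27, −1.53 and −1.25 at 3, 6 and 12 h. INHBA, the activin A subunit, reached −1.15 at 6 h, with a spot that lies in a damaged area of at least 1 array. TGFB2, a TGF-β ligand, was at −1.01 at 6 h and −0.39 at 12 h.

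Among 16 Hippo kinases, adaptors and upstream regulators, 15 were measured and 2 rose past 2-fold, both at 6 h, where 2.81% of all genes did. They were TAOK3, a kinase upstream of MST, with log2 changes of 0.83, 1.27 and 0.72, and FRMD6, a FERM protein, with 0.97, 1.01 and 0.87. The median of the list was 0.11, 0.15 and 0.22. No gene of this list fell 2-fold, beside 0.375%, 0.944% and 1.12% of all genes at 3, 6 and 12 h.

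The 6 measured TEAD and VGLL factors, the DNA-binding partners of YAP and their cofactors, held no 2-fold change, which at the shares over all genes given above is no result for a list of this size. VGLL4, with a spot in a damaged area of at least 1 array, was at 0.32 and TEAD4 at −0.71 at 12 h. The median of this list at 3 h was 0.22, and −0.02 with damaged areas left out. Of the 4 other CCN family genes only NOV and WISP2 were measured. NOV had log2 changes of 0.14, 0.34 and 0.28 at 3, 6 and 12 h, beyond the technical SD at 6 h and 12 h and below 1.5-fold. WISP2, whose spot also lies in a damaged area of at least 1 array, had 0.42, 0.02 and −0.05. Over 14 targets of serum response factor and its MRTF coactivators, the median log2 change was 0.07, −0.03 and 0.12. VCL, the gene of the adhesion protein vinculin, reached 1.02 at 12 h, and ZYX, that of the adhesion protein zyxin, −1.07 at 6 h.

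**Figure D4:**
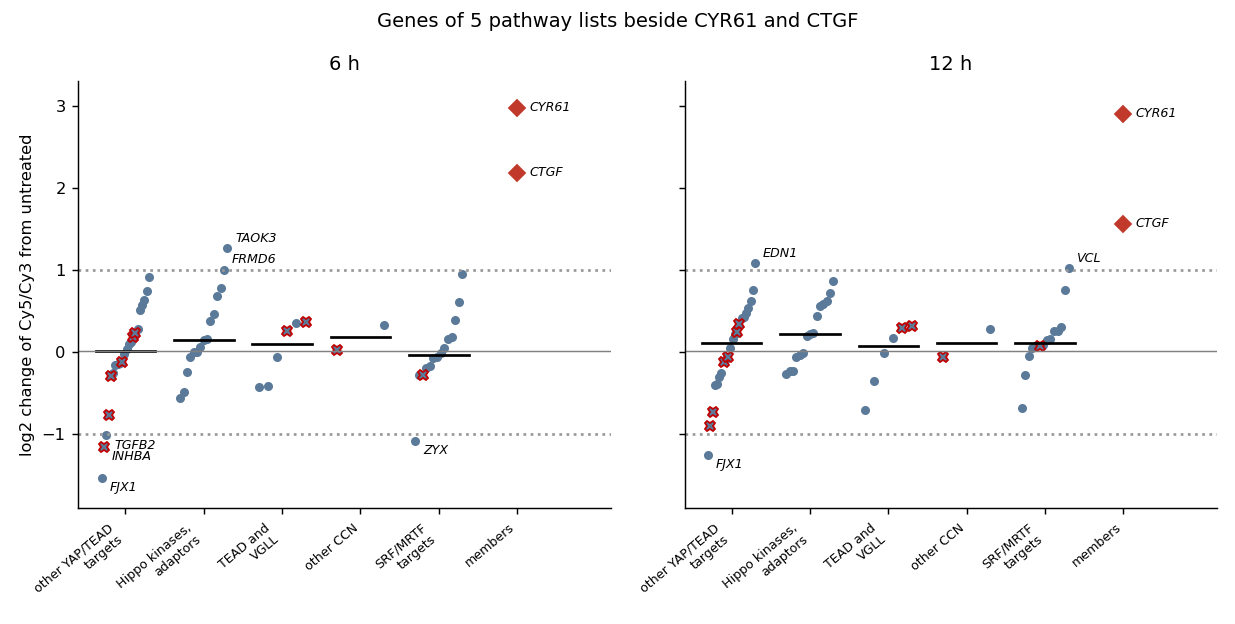
Log2 change from the untreated array at 6 h (left) and 12 h (right) for each measured gene of 5 lists, with CYR61 and CTGF as red diamonds. Black bars are list medians, the grey line is the median of all measured genes, dotted lines mark 2-fold, and red-edged crosses are spots in a damaged area of any array. The list medians lie between −0.03 and 0.22. CYR61, which was chosen for its rise, and CTGF lie above every gene of the lists.

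By the Euclidean distance over the 3 log2 changes, the genes nearest to CYR61 among 19890 others measured on all arrays were GRHL1 at 0.76, TPPP at 0.97, CCL20 at 0.97, LINC00087 at 1.06 and TUFT1 at 1.16. GRHL1, a grainyhead transcription factor of epithelia, had log2 changes of 2.27, 2.85 and 2.69 at 3, 6 and 12 h. CCL20, a chemokine, had 1.06, 2.13 and 2.88. CTGF had rank 35 in this order, at a distance of 1.73. The order rests on the values for which CYR61 was chosen and is a description.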

How the data were processed

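RNA of SUM149 cells was measured on 4 two-colour Agilent arrays of 1 slide, 1 array per group, so no batch and no difference between conditions could be tested. The authors deposited for each spot the Cy5 and Cy3 intensity and local background from Agilent Feature Extraction, the log10 ratio that this program computes once background and dye are corrected, and its flags of outliers and of detection. A further deposited table gives log2 ratios normalized by the authors, whose normalization is not given in the sources used here, and whose gene symbols were used.

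From the deposited median intensities, normexp (offset 50, which shrinks the changes of dim spots) removed background, controls and flagged spots were dropped, and arrays were normalized by loess and Aquantile in limma 3.58.1 (R 4.3.3). Replicate spots were averaged per probe, and a gene was its probe brightest in Cy3. A gene was counted if both channels of the 2 arrays compared were well above background and the log2 change was at least 1. The number of arrays limits the precision. Damaged areas were 13-row by 7-column windows in which 10% or more of the spots were defective, by Cy3 and flags alone. Copies of repeated probes near a spot were set against undamaged copies of the same probe. Promoter windows came from RefSeq (GRCh38.p14). Tables were made in Python 3.11.15 with numpy 2.4.6 and pandas 2.3.3.

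The members and lists were chosen with earlier results of these data known. Named genes are all members, list genes past 2-fold (or else the largest rise and fall of a list at 12 h) and the 5 genes nearest to CYR61. AREG and F3 were named for the reference after their values were seen. The normalization was tested on simulated data for 12 h against untreated: of 200 changed spots among 15377, all brighter than the median, 97% were recovered past 2-fold with the right sign, and 0 spots without a planted change passed. All planted changes were larger than 2-fold, and the median share of their log2 size recovered was 0.87. Both simulated arrays were drawn from the untreated array with small spot noise. Dim spots, damage and differences between arrays were therefore not covered. Alternatives covered background, normalization, the Cy5 channel alone, the authors' table, probes, damaged areas, the threshold and the filter on dim probes.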

Additional observations from a re-analysis of the deposited data

Results flagged for a closer look

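The Cy3 signal of the brighter WWTR1 probe on the 3 h array stood apart from the other 3 arrays, at −0.998 on the log2 scale against their median. Of the 13 member probes tested for such a gap in Cy3 it was the only one, and chance alone marks about 1 in 20. The spot lies in the damaged area of that array described above, and the 41 copies of repeated probes near it were low in Cy3 as well.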

How the results depend on the processing

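The rises of CYR61 and CTGF kept their direction under all 9 alternatives at each time. Each gene has 1 intact spot without a flag. Averaging over probes, leaving out damaged areas and keeping flagged spots therefore could not change either gene. CYR61 moved beyond the technical SD with the Cy5 channel alone (1.29, 2.53 and 2.42 at 3, 6 and 12 h) and with median centring (2.77 at 6 h and 2.49 at 12 h). CTGF ranged from 0.79 to 1.13 at 3 h, and at 6 h AJUBA from −0.73 to −0.44 and YAP1 from −0.76 to −0.54. At 12 h CTGF ranged from 1.42 to 2.06, YAP1 from −0.79 to −0.47, AJUBA from −0.78 to −0.32, LATS2 from 0.32 to 0.66 and MOB1A from 2.99 to 4.60. AMOTL2, WWTR1 and MOB1B changed sign under some alternatives. Median centring moved the median of all genes at 12 h to −0.16, relative to which CYR61 was 2.65 and CTGF 1.58 higher, YAP1 −0.63 and AMOTL2 0.10. The share of 2-fold changes that were rises was 82.0%, 74.9% and 67.6% at 3, 6 and 12 h, but 51.5% at 6 h and 27.2% at 12 h with median centring, 45.6% at 3 h and 56.9% at 12 h with Cy5 alone, and 63.0% at 3 h and 63.9% at 6 h with the Feature Extraction ratio. Members past 2-fold at 3 h numbered 2, but 3 with the Feature Extraction ratio, where CTGF passed, and 1 with damaged areas left out or at 4-fold. List genes past 2-fold numbered 1, 6 and 3 at 3, 6 and 12 h, over lists of 22, 15, 6, 2 and 14 measured genes. Of all measured genes 1.71%, 2.81% and 2.34% rose that far and 0.375%, 0.944% and 1.12% fell. At 1.5-fold list genes numbered 9, 14 and 14. Of all genes 6.9%, 9.4% and 8.09% rose that far and 1.96%, 4.42% and 5.13% fell. The count of list genes was 0 at each time at 4-fold, and 5 at 3 h and at 12 h with Cy5 alone. At 3 h it was 3 with median centring and 2 with an offset of 1, without background subtraction or in the authors' table. The cause was not tested. Keeping the flagged YAP1 spots was an alternative chosen after seeing the data. No paired analysis was possible because each group has 1 array. Low signal over background limits CTGF in untreated cells and ANKRD1 throughout.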
